A study of Homo sapiens with 2 samples.

Results

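N6-methyladenosine (m6A) is an adenosine mark that readers of mRNA recognise, and its peaks were examined in 43 genes of the PI3K, AKT and mTOR pathway in HCCLM3, a human hepatocellular carcinoma line with high metastatic capacity. A peak was counted for a gene when its summit lay inside the gene's RefSeq span on hg38, whatever gene the deposited table named for it. This gave 119 peaks of the 39801 in the table. The genes were taken from the pathway's known membership, with no peak value in the rule. Earlier results of these data were, however, known when the genes were chosen. The cells were HCCLM3 of WT genotype in both groups, which were 1 m6A-RIP library, made from RNA pulled down with an m6A antibody, and 1 input library, made from the RNA before pull-down. No treatment is named in the labels, and neither group had a replicate. Every value therefore describes these libraries, and differences between genes have no replicate check.

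The PI3K, AKT and mTOR pathway carries growth factor and nutrient signals to cell growth, translation and metabolism. Class I PI3 kinases make a membrane lipid that recruits PDK1 and AKT, lipid phosphatases remove it, and AKT then restrains FOXO transcription factors and the TSC complex. The TSC complex switches off RHEB, the GTPase that activates mTOR complex 1 on lysosomes, while Rag GTPases, GATOR1, FLCN and sestrins report amino acid supply to the same complex. The pathway is often active in liver cancer and is a known route of resistance to receptor kinase inhibitors. The series belongs to a study of CRTC2, a coactivator of CREB, and YTHDF2, a reader of m6A, in liver cancer and its resistance to the kinase inhibitor lenvatinib; only WT cells were compared here.

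For each peak the table gives the caller's fold of m6A-RIP over input and the caller's p-value and q-value. From these the number of RIP fragments under each summit, and the input level that the caller set against it, could be worked back. The lowest such level was 0.246, shared by several peaks, so a low level need not be the input counted at that summit. The fold equals 0.642 times the RIP fragments plus 1, over the input level plus 1, so a peak on little input cannot reach a high fold unless it holds many RIP fragments. The range in parentheses after a fold is an exact 95% Poisson interval for the count of RIP fragments, taking the input level as known. Shares carry 95% Wilson intervals, which for shares of peaks take peaks of the same gene as independent. Both kinds of interval cover counting error only. Copies of a molecule made by PCR cannot be recognised without molecular identifiers, so the fold intervals may be too narrow even for that error. The fold interval also leaves out the counting error of the input. Total depth is not given; the RIP library was 1.56 times the size of the input by the recovered scaling. A gene without a peak may have little RNA or little m6A, and the peak table cannot tell these apart. The list of hepatocyte markers held a peak in 3 of 10 genes (APOB, HNF4A and FGB), and the list for liver cancer and epithelial cells in 1 of 6 (KRT8), with none in AFP, GPC3, EPCAM, KRT18 and KRT19. Of the markers of other cells, 0 of 5 immune, 1 of 4 endothelial and 1 of 5 stromal genes held a peak. Among all protein-coding genes 49.3% held a peak, and the counts of these short lists do not tell the cell type. ALB was among the hepatocyte markers without a peak, and a peak list does not measure expression.

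Of the RefSeq windows from 250 bases before to 50 bases after a gene start, 37 of the 43 genes had at least 1, and 2 of their 68 windows met a peak. Both are shown because a peak reaches into them. The bases inside the peak are in capitals, and both are read 5′ to 3′ on the gene's own strand of GRCh38.p14.
PIK3R1 (chr5:68215506-68215805, plus strand): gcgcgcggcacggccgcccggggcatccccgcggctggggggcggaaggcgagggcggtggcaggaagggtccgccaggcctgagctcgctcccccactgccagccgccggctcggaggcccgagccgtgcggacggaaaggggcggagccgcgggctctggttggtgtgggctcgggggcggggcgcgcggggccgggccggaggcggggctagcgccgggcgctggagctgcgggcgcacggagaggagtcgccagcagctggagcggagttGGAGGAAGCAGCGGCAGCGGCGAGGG
TSC2 (chr16:2047735-2048034, plus strand): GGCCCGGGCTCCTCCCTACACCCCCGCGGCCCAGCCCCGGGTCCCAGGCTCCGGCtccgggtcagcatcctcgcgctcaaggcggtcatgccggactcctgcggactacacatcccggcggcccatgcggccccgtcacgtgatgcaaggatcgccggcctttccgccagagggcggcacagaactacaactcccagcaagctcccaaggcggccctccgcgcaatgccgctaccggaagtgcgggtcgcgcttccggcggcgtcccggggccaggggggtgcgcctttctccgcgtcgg
The PIK3R1 peak entered the last 26 bases of its window and had its summit 195 bases inside the gene. It held 20 RIP fragments over an input level of 2.0, a fold of 4.61 (2.95 to 6.94). The peak at the TSC2 window covered 55 bases at the far end from the TSC2 start, with its summit 361 bases before that start. That summit lay in NTHL1, a DNA repair gene on the opposite strand whose span ends 151 bases before TSC2, so it was not counted for TSC2. With 38 RIP fragments over an input level of 5.33, it reached a fold of 4.01 (2.88 to 5.45). The letters GGAC, the core of the usual m6A consensus, were searched on both strands of each window. PIK3R1 held 1 match on its own strand and 1 on the other, none of them inside the peak. TSC2 held 2 on each strand, and the 1 inside the peak was on the NTHL1 strand. Of all 35116 promoter windows of this length, 66.3% held GGAC on the gene's strand and 87.4% on either strand, so such matches are common.

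Most genes of the pathway carried a peak. Of the 43, 32 held at least 1 summit (74.4%, interval 59.8 to 85.1), against 49.3% of 20037 protein-coding genes. At a caller q-value under 0.05 the counts were 29 genes (67.4%, 52.5 to 79.5) against 39% of protein-coding genes, and at a q-value under 1e-5 they were 23 (53.5%, 38.9 to 67.5) against 28.5%. A fold of at least 4 was reached in 22 genes (51.2%, 36.8 to 65.4), against 30.9%. A 3′ UTR peak was present in 21 genes (48.8%, 34.6 to 63.2), against 24.6%. The 11 genes without a peak were PIK3CD, AKT1, SGK1, INPP4B, INPP5D, TSC2, RHEB, DEPTOR, RPS6KB2, NPRL2 and SESN3. These shares were not matched on expression. The genes were not drawn at random and were chosen with earlier results of these data known.

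The share of protein-coding genes with a peak was higher in longer genes, while that of the pathway genes varied little with length. Among genes with a span under 30 kb, 9 of 12 pathway genes held a peak (75%, 46.8 to 91.1), against 36% of protein-coding genes of that length. Between 30 and 100 kb it was 10 of 13 (76.9%, 49.7 to 91.8) against 63.5%, and from 100 kb upward 13 of 18 (72.2%, 49.1 to 87.5) against 70.7%. In the last class the pathway share stood at the background, and the gap to it was widest among short genes. For a q-value under 0.05 the pathway counts in the 3 classes, from short to long, were 9 of 12, 10 of 13 and 10 of 18. The backgrounds were 28.7%, 49.9% and 55.4%, and in the last class the pathway share again stood at the background.

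**Figure D1:**
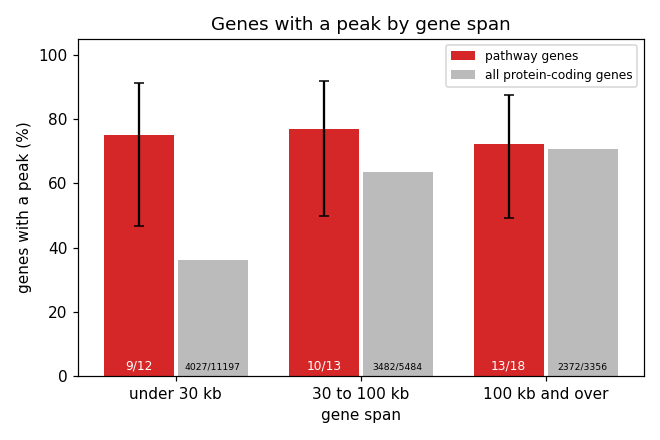
Share of genes with a peak summit in their span (%, vertical axis) in 3 classes of gene span, for pathway genes (red, with 95% Wilson intervals) and all protein-coding genes (grey). The numbers in the bars are genes with a peak over all genes of the class; the red bars stand at 75%, 76.9% and 72.2%, beside grey bars of 36%, 63.5% and 70.7%.

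The catalytic subunits of PI3 kinase differed widely. PIK3CA, which encodes the class I alpha isoform often mutated in cancer, held 7 peaks, and 3 passed a q-value of 0.05. Its 3′ UTR peak (chr3:179234148-179234703) rested on 60 RIP fragments over an input level of 1.78, a fold of 14.2 (10.9 to 18.2). This was the second highest fold of the pathway after an intron peak of FOXO3, and the intervals of these overlap. Exon 2 of 21 of PIK3CA held a further peak on 47 fragments over an input level of 4.0, with a fold of 6.23 (4.63 to 8.22). The last intron, 20 of 20, held a peak of fold 6.43 (3.87 to 10.2) on 15 fragments. The other 4 peaks of PIK3CA had folds of 2.35 to 3.38 on 3 to 5 fragments, and none had a q-value under 0.05.

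PIK3CB, the beta isoform, held 5 peaks. Its 3′ UTR peak (chr3:138655092-138655499) had 48 fragments over an input level of 6.0 and a fold of 4.54 (3.39 to 5.98), an interval wholly below that of the PIK3CA 3′ UTR. An intron 4 peak had a fold of 3.94 (2.59 to 5.79) on 23 fragments. Its highest fold, 4.79 (2.57 to 8.46), lay in intron 1 of 23 on 9 fragments and is known less precisely. PIK3CD, the delta isoform best known from white blood cells, had no peak in its span. With peaks labelled intergenic left out, the table named 1 peak for it, which lay outside.

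The class II kinases, which make other phosphoinositides in endocytic traffic, had peaks in early exons. In PIK3C2A the strongest was in exon 3 of 34 (chr11:17168702-17169711), with 80 fragments over an input level of 8.29 and a fold of 5.63 (4.49 to 6.99). In PIK3C2B it was in exon 2 of 33 (chr1:204468726-204469736), with 100 fragments over an input level of 21 and a fold of 2.96 (2.42 to 3.59). Both peaks were about a kilobase wide. The PIK3C2B exon had the highest input level of the 119 peaks, and its interval lay below that of PIK3C2A. An intron 1 peak of PIK3C2B had a nominally higher fold, 4.1 (2.72 to 5.98), on 24 fragments.

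Among the regulatory subunits, which hold the class I kinases inactive until a receptor is engaged, PIK3R1 carried the clearest signal. It had 3 peaks, all with a q-value under 0.05: the start peak shown above, a 5′ UTR peak (chr5:68226472-68227049) of fold 6.63 (4.28 to 9.89) on 21 fragments, and, in the 3′ UTR, 17 fragments that gave a fold of 3.97 (2.45 to 6.15). The 5′ UTR peak was the only peak with that label in the pathway. PIK3R2 had a promoter-labelled peak of fold 2.77 (2.06 to 3.67) on 46 fragments and a 3′ UTR peak of fold 2.25 with a q-value above 0.05. In PIK3R3 none of 4 peaks had a q-value under 0.05, and all of them also lay in the readthrough gene P3R3URF-PIK3R3.

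**Figure D2:**
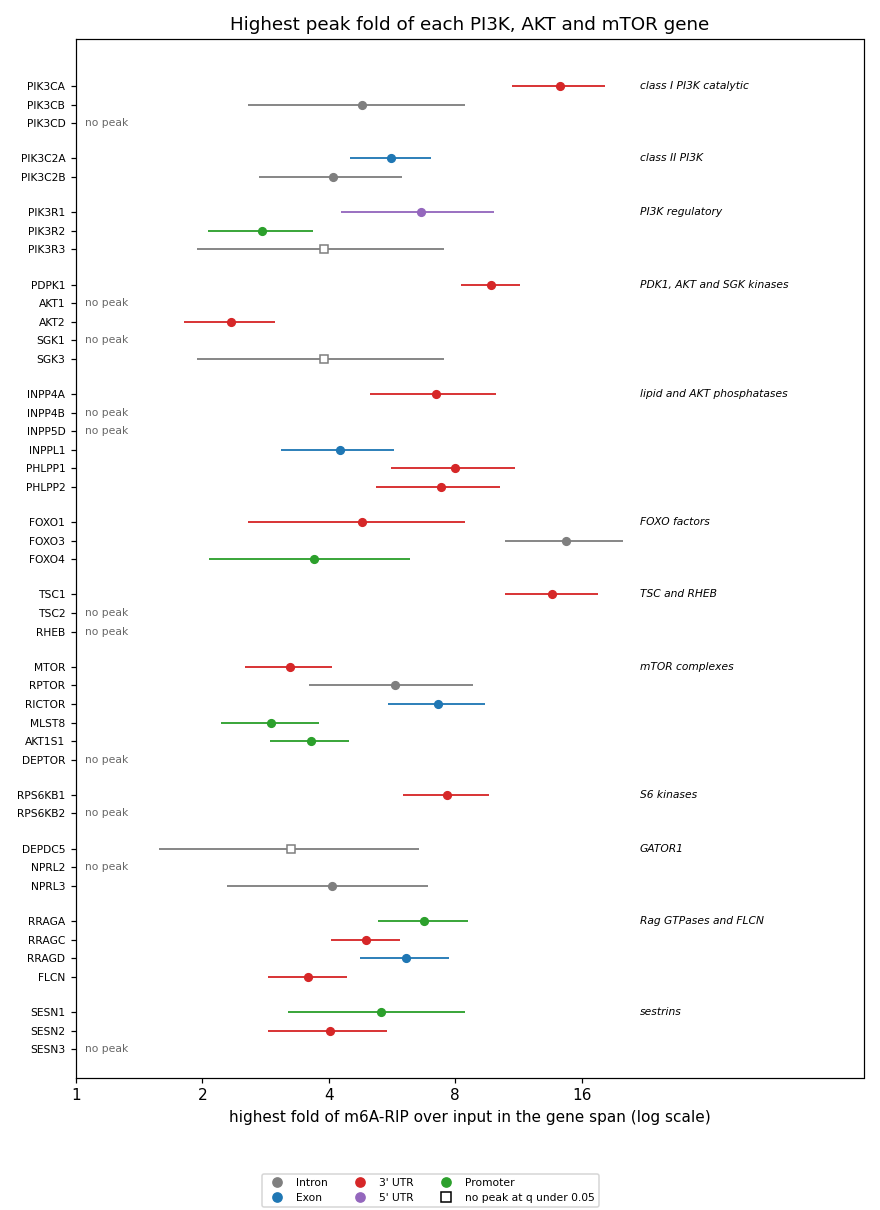
Highest fold of m6A-RIP over input among the peaks of each of the 43 genes (horizontal log axis), ordered by role, with exact 95% Poisson intervals. Colours give the region label of that peak, open squares mark genes with no peak at a q-value under 0.05, and the 11 genes without a peak are written out. FOXO3 (14.7), PIK3CA (14.2) and TSC1 (13.6) stand farthest right.

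PDPK1, which encodes the kinase PDK1 that switches on AKT, S6 kinases and SGK kinases, had the deepest peak of the pathway. Its 3′ UTR peak (chr16:2597744-2598222) rested on 150 RIP fragments over an input level of 9.0, with a fold of 9.72 (8.24 to 11.4) and a −log10 p of 63.3, the highest of the 119. All 5 peaks of PDPK1 had a q-value under 0.05, including intron 6 of 11 with a fold of 7.21 (4.74 to 10.6) on 23 fragments. A further peak in intron 6 had a fold of 4.47 (2.56 to 7.42) on 12 fragments, and one in intron 2 had 3.7 (2.03 to 6.38) on 10. The peak nearest the gene end, which carries a promoter label, had a fold of 3.03 (2.21 to 4.08) on 41 fragments. PDPK2P, a near-identical pseudogene copy nearby on chromosome 16, held 7 peaks of its own, the highest with a fold of 12.3 (8.47 to 17.2) on 30 fragments. Reads of this gene and its copy can be exchanged, so the PDPK1 values are uncertain by an amount that was not tested.

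Of the 4 AKT and SGK kinases, only AKT2 had a peak with a q-value under 0.05. AKT2, the isoform prominent in insulin response, had 2 adjacent 3′ UTR peaks, with folds of 2.34 (1.81 to 2.97) on 64 fragments and 2.23 (1.69 to 2.89) on 54 fragments. The input levels there were 17 and 15, among the higher ones of the pathway. AKT1 had no peak in its span and, with peaks labelled intergenic left out, none named for it. SGK1 likewise had none. SGK3, a lipid-binding relative of AKT, had 3 intron peaks on 2 to 6 fragments with no q-value under 0.05, and each also lay in the readthrough gene C8orf44-SGK3.

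The phosphatases that oppose the pathway divided by gene. INPP4A, which removes a phosphate from a PI3 kinase product, held 13 peaks, of which 7 passed a q-value of 0.05. Its 3′ UTR peak (chr2:98590196-98590585) had 32 fragments over an input level of 2.0 and a fold of 7.18 (5.01 to 9.99). Its 11 intron peaks included 5 in intron 1 of 25, spread over 36.8 kb, of which the first, of fold 5.32 (3.36 to 8.08) on 19 fragments, had a q-value under 0.05. The intron 13, 23 and 25 peaks had folds of 5.36 (3.01 to 9.07) on 11 fragments, 5.47 (3.62 to 7.97) on 24 and 4.43 (3.16 to 6.06) on 36. An intron 4 peak of fold 3.85 (2.02 to 6.98) and a peak in exon 25 of 26 of fold 3.62 (2.33 to 5.4) also passed a q-value of 0.05. The other 6 peaks had folds of 1.76 to 3.07 on 2 to 8 fragments. INPP4B, a paralog known as a tumour suppressor, had no peak in a span of 823 kb, the longest of the pathway. INPP5D, the blood cell form of the SHIP phosphatases, also had none, whereas its widely expressed relative INPPL1 had 2 exon peaks. In exon 25 of 28 the fold was 4.25 (3.08 to 5.73) on 40 fragments, and in exon 26 of 28 it was 2.21 (1.72 to 2.81) on 64 fragments over an input level of 18.0.

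PHLPP1 and PHLPP2, which dephosphorylate AKT directly, had 3′ UTR peaks of like strength. For PHLPP1 (chr18:62978669-62979703) the fold was 7.99 (5.61 to 11.1) on 33 fragments over an input level of 1.78. For PHLPP2 (chr16:71648708-71649309) it was 7.39 (5.19 to 10.2), also on 33 fragments, over an input level of 2.0. These 2 intervals overlap over most of their length. A second 3′ UTR peak of PHLPP2 had a fold of 2.26 (1.21 to 3.99) on 9 fragments and a q-value above 0.05. PHLPP1 held 6 further peaks, all intronic, 4 of them in intron 10 of 16 within 10.4 kb, and of those 4 only the highest, of fold 5.72 (3.15 to 9.88), had a q-value under 0.05. The other 5 intron peaks of PHLPP1 had folds of 2.21 to 3.89 on 3 to 6 fragments.

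FOXO3, a transcription factor that AKT keeps out of the nucleus, had the highest fold of the pathway and 8 peaks, 6 with a q-value under 0.05. Intron 2 of 3 (chr6:108630112-108630570) held 37 fragments over an input level of 0.681, a fold of 14.7 (10.5 to 20.1). The 3 peaks labelled 3′ UTR followed, with folds of 9.6 (7.54 to 12.1) on 71 fragments, 7.92 (5.96 to 10.3) on 51 and 6.51 (4.7 to 8.8) on 39. The exon 3 of 4 peak, beside the 3′ UTR peak of fold 6.51, had a fold of only 2.49 (1.84 to 3.3) over an input level of 11. Another intron 2 peak had a fold of 4.67 (2.72 to 7.63) on 13 fragments. The last intron 2 peak and the start peak had folds of 2.21 and 2.2, with q-values above 0.05. FOXO3B, a near-identical copy on chromosome 17, held 1 peak of fold 8.68 (6.39 to 11.5), and the sharing of reads between the copies was not tested. FOXO1, the main FOXO factor of hepatic glucose production, had 3′ UTR folds of 4.79 (2.57 to 8.46) on 9 fragments and 3.46 (2.21 to 5.2) on 20. FOXO4 had 1 promoter-labelled peak of fold 3.69 (2.07 to 6.24) on 11 fragments. The interval of the FOXO3 intron peak lay above those of both relatives.

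The TSC complex, the brake on mTOR complex 1, was split between its subunits. TSC1, which stabilises the complex, held 4 peaks, 3 of them in its 3′ UTR. The strongest (chr9:132895830-132896579) had 60 fragments over an input level of 1.89 and a fold of 13.6 (10.5 to 17.5). Nearer the gene end, folds were 3.72 (2.68 to 5.03) on 39 fragments and 2.25 (1.55 to 3.16) on 30, over input levels of 6.0 and 8.0, and the second of these did not pass a q-value of 0.05. Exon 15 of 23 held a peak of fold 2.89 (1.87 to 4.32) on 21 fragments. The interval of the strongest peak thus lay above those of the others in this 3′ UTR, with the counting error of the input left out. TSC2, which holds the catalytic activity toward RHEB, and RHEB itself had no peak.

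**Figure D3:**
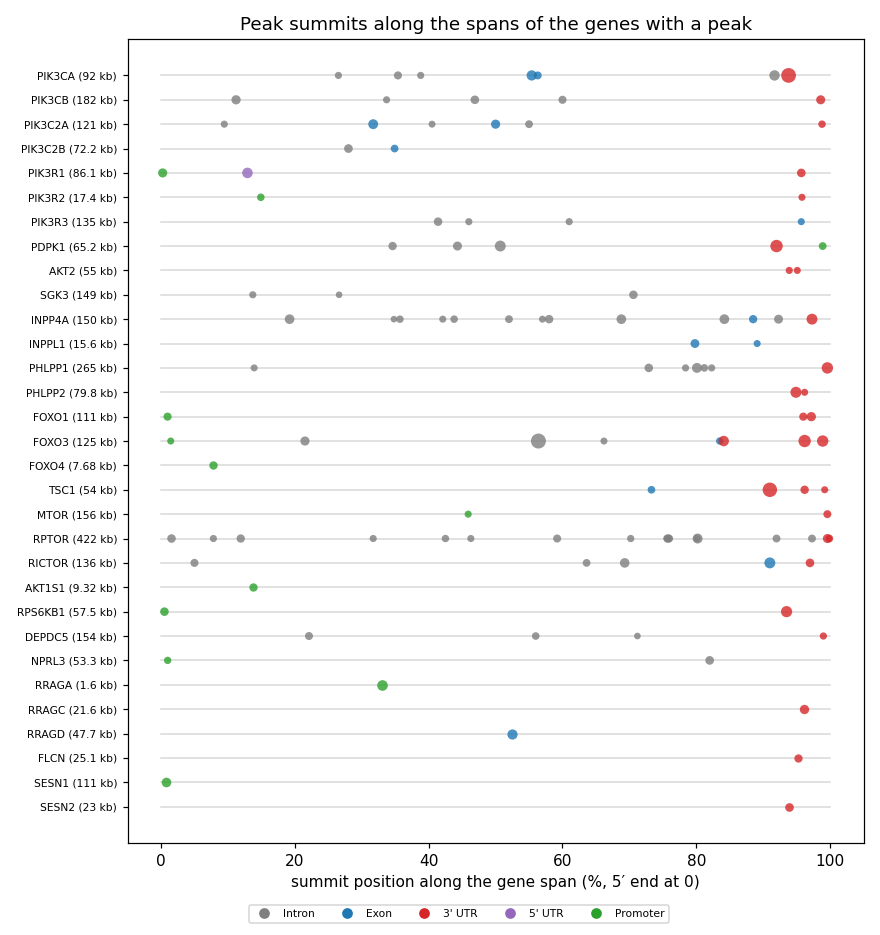
Position of each summit along its gene span (%, the 5′ end at 0) for the genes with a peak and a known strand; dot area grows with fold, and colours give the region label. Summits labelled 3′ UTR gather at the right edge, and intron summits of RPTOR, INPP4A and PHLPP1 spread across their spans.

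Of the genes of the mTOR complexes, 5 of 6 held a peak with a q-value under 0.05. MTOR, the kinase of both complexes, had a 3′ UTR peak (chr1:11106909-11107274) on 69 fragments over an input level of 13.0, a fold of 3.23 (2.53 to 4.07). The other peak in its span lay in the nested gene ANGPTL7 on 3 fragments. RPTOR, the scaffold of mTOR complex 1 that selects its substrates, held 17 peaks, the most of the pathway, and 15 of them were intronic. Only 5 of the 17 had a q-value under 0.05. Its 3′ UTR peaks had folds of 4.52 (3.65 to 5.54) on 90 fragments and 2.84 (2.25 to 3.53) on 78. Intron 13 of 29 held 5 peaks within 19.5 kb, the highest with folds of 5.75 (3.59 to 8.81) on 18 fragments and 4.28 (2.49 to 6.99) on 13. A peak in intron 1 had a fold of 3.92 (2.06 to 7.11) on 8 fragments. The other 12 intron peaks of RPTOR had folds of 2.31 to 3.66 on 3 to 14 fragments, and none passed a q-value of 0.05.

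RICTOR, the scaffold of mTOR complex 2, had its strongest peak in exon 31 of 39 (chr5:38949980-38950532), with 55 fragments over an input level of 4.0 and a fold of 7.26 (5.52 to 9.39). In intron 8 of 38 the fold was 5.23 (2.81 to 9.23) on 9 fragments. Peaks in introns 7 and 2 had folds of 2.99 (1.64 to 5.16) and 3.33 (1.97 to 5.36), with q-values above 0.05. Its 3′ UTR peak, of fold 3.98 (2.61 to 5.84), also lay within the span of OSMR, so the table cannot say to which transcript it belongs. MLST8, a subunit of both complexes, had 1 peak of fold 2.92 (2.21 to 3.79) on 53 fragments. AKT1S1, an inhibitor of mTOR complex 1 that AKT phosphorylates, had 1 of fold 3.62 (2.89 to 4.47) on 83 fragments. Both carried promoter labels, but the gene named for the MLST8 peak was BRICD5, so its label need not refer to MLST8. DEPTOR, another inhibitor, had no peak.

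Downstream of mTOR complex 1, the S6 kinase gene RPS6KB1 held a 3′ UTR peak (chr17:59946656-59947396) on 70 fragments over an input level of 5.0, with a fold of 7.65 (6.0 to 9.62). It also had a peak 282 bases after its start, of fold 3.92 (2.69 to 5.54) on 29 fragments. Its paralog RPS6KB2, a gene of 6.91 kb, had no peak.

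Among the Rag GTPases, RRAGA, RRAGC and RRAGD held 1 peak each, as did FLCN, their activator, and each of these peaks had a q-value under 1e-5. RRAGB, a Rag GTPase outside the 43 genes, held 2 peaks with a q-value under 0.05 and none under 1e-5, with a highest fold of 4.08 (2.55 to 6.27). The folds were 6.75 (5.24 to 8.56) on 65 fragments for RRAGA, 6.1 (4.74 to 7.74) on 65 for RRAGD, 4.91 (4.04 to 5.91) on 108 for RRAGC and 3.57 (2.86 to 4.42) on 82 for FLCN. The interval of FLCN lay below those of RRAGA and RRAGD and overlapped that of RRAGC. The RRAGD peak lay in exon 2 of 7, the RRAGC and FLCN peaks in 3′ UTRs. RRAGA spans 1.6 kb, so its promoter-labelled peak, 528 bases after the start, lay within the gene.

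In GATOR1, the complex that inactivates Rag GTPases when amino acids are short, only 1 of 6 peaks had a q-value under 0.05. It was in intron 9 of 13 of NPRL3, with a fold of 4.08 (2.29 to 6.89) on 11 fragments. DEPDC5 had 4 peaks on 2 to 6 fragments, and NPRL2, of 3.45 kb, had none. Sestrins, which sense leucine and stress upstream of GATOR1, had a start peak in SESN1 of fold 5.31 (3.19 to 8.44) on 15 fragments. SESN2 had 36 fragments in its 3′ UTR and a fold of 4.02 (2.86 to 5.5). SESN3 had none.

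The 119 peaks were set beside all peaks in protein-coding spans by their region labels. Introns held 63 (52.9%, 44.0 to 61.7) against 44.4% of 30222 peaks, 3′ UTRs 29 (24.4%, 17.5 to 32.8) against 18.8%, exons 13 (10.9%, 6.5 to 17.8) against 18.1%, and promoter labels 13 against 15%. The exon share was the one whose interval did not reach the background, by a narrow margin. Peaks of the same gene are not independent, and 5 genes held 52 of the 119, so these intervals may be too narrow. Exons and UTRs together made up 36.1% (28.1 to 45.1) against 38.4%. The share of peaks with a q-value under 0.05 was 55.5% (46.5 to 64.1) against a background of 53.7%. A fold of at least 4 was reached by 41 peaks (34.5%, 26.5 to 43.4) against 36.2%. The median of each gene's highest fold was 4.85 (quartiles 3.84 to 7.2) over 32 genes, beside 4.73 over 9881 protein-coding genes with a peak.

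**Figure D4:**
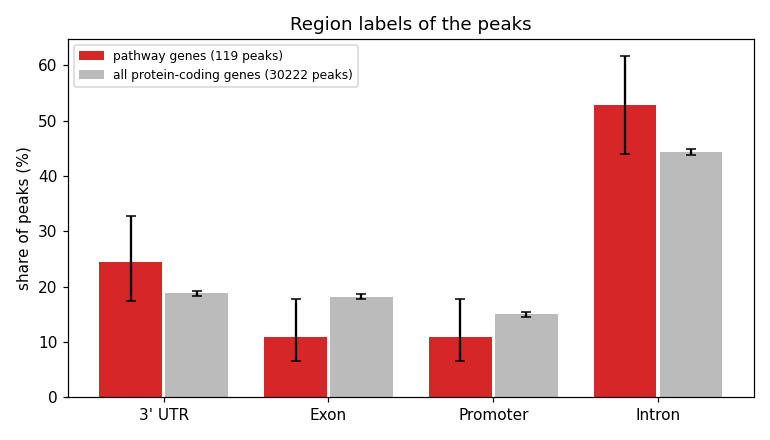
Share of peaks (%, vertical axis) with each main region label, for the 119 peaks of the pathway genes (red) and the 30222 peaks in protein-coding spans (grey), with 95% Wilson intervals. The red interval for exons ends just below the grey bar, and the other red intervals reach or include theirs. The intervals take peaks of the same gene as independent.

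Most peaks with a q-value under 1e-5 lay toward the gene ends. Among the 35 peaks with a q-value under 1e-5, 18 were in 3′ UTRs (51.4%, 35.6 to 67.0), against 34.2% of such peaks in all protein-coding genes. Of the 34 such peaks with a known strand, 20 lay in the last 10% of the span (58.8%, 42.2 to 73.6), against 33.0%. All 3′ UTR peaks but 1 of the 29 lay in that last part, the exception being a FOXO3 peak at 84.1% of the span. Of the 63 intron peaks, 7 had a q-value under 1e-5 (11.1%, 5.49 to 21.2), near the 10.9% of all intron peaks in protein-coding spans; they lay in FOXO3, INPP4A, PDPK1, PIK3CA and RPTOR. Introns also held 20 of the 22 peaks that rested on at most 3 fragments. A median of 6 RIP fragments lay under an intron summit, against 44 under a 3′ UTR summit, with median input levels of 0.355 and 5.0.

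**Figure D5:**
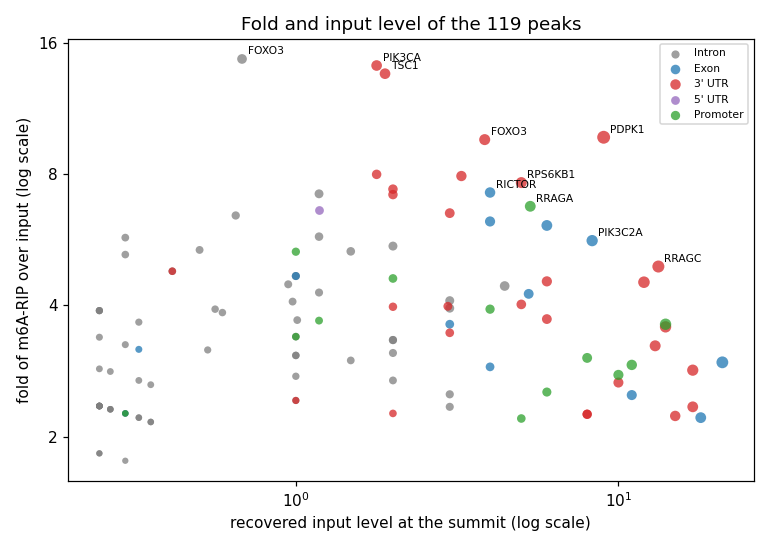
Fold of m6A-RIP over input (vertical log axis) against the recovered input level that the caller set against each summit (horizontal log axis). The 119 peaks are coloured by region. Dot area grows with RIP fragments, and the 10 peaks of smallest p-value are named. FOXO3, PIK3CA and TSC1 stand highest at input levels of 0.681 to 1.89, while PDPK1 reaches 9.72 at an input level of 9.0.

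The gene named in the table was often not the host. It was the host for 62 of the 119 peaks (52.1%, 43.2 to 60.9), against 59.9% of peaks in protein-coding spans, and for only 4 of the 29 3′ UTR peaks (13.8%, 5.5 to 30.6), against 45.8%. The background rule was wider, since any protein-coding gene at the summit counted as host, and only the pathway gene itself did here. By it the RICTOR 3′ UTR peak named OSMR and the MTOR peak named ANGPTL7 would have counted. Of the 57 pathway peaks not named for the host, 37 were named for another gene and 20 carried no gene name, 14 of them in RPTOR, 3 in PDPK1, 2 in DEPDC5 and 1 in MTOR. No name was given for 12.9% of all peaks in the table. Among the 3′ UTR peaks, 20 were named for another gene and 5 had no name. The 3′ UTR peak of PIK3CA was listed under KCNMB3, those of TSC1 under AK8, those of FOXO3 under LINC00222 and that of RPS6KB1 under RNFT1. By the table's own naming, with peaks labelled intergenic left out, AKT2, INPPL1, TSC1, MTOR, MLST8 and FLCN would have had no peak. The highest fold of PIK3CA would have been 6.23, and that of PDPK1 4.47.

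Of 75 other genes of the pathway, 49 held a peak (65.3%, 54.1 to 75.1) and 39 held one with a q-value under 0.05 (52.0%, 40.9 to 62.9), beside the same backgrounds of 49.3% and 39%. The highest fold at that threshold was 10.2 (7.13 to 14.1) in the 3′ UTR of TBC1D4, an AKT substrate that controls glucose transporter traffic. PIK3R4, a regulatory subunit of the class III kinase, followed with 9.55 (7.55 to 11.9) in a promoter-labelled peak. The receptor genes INSR and IGF1R each reached 8.3 (6.69 to 10.2) on 89 fragments in their 3′ UTRs. KICS2 (8.26) and MIOS (8.2), of the KICSTOR and GATOR2 complexes, had 3′ UTR peaks as well, and PRKAA2 (6.63) and ULK1 (6.37) completed the 8 highest. Genes of this list without a peak included PIK3CG, PIK3R5, PIK3R6, PIK3AP1, EIF4EBP1, RPS6, EIF4B and IRS4. The list was likewise chosen with earlier results of these data known.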

How the data were processed

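The members and lists were chosen with earlier results of these data known. The submitters' processing notes name HISAT2, MACS2 and hg38, by which the authors made the peak list; the sources used here give no versions or settings. They deposited 1 annotated table of 39801 peaks, numbered up to 39824. Its fold, per the file headers an enrichment, is a linear ratio of m6A-RIP to input at the deposited summit. Its −log10 p-value and −log10 q-value columns have damaged headers in the deposited table; they were identified from the deposited score, which is 10 times the −log10 p-value rounded down for 99.99% of peaks.

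Summits were placed in gene spans from RefSeq on GRCh38.p14, the patched form of hg38 with unchanged chromosome coordinates. Fragments were recovered as whole numbers that meet fold and p-value within 0.001 on the −log10 p scale. The largest scaling factor that does so (0.642) and a pseudocount of 1 were used. With these 100% of peaks were met, 98.2% by 1 number only. The fragments of 100% of 1994 simulated peaks were also recovered. Those peaks were made with the same formula and factor, so they check the back-calculation and not the factor. The table has no strand. A promoter label takes precedence over others within 3 kb of a start. With 1 library per group no test was made and no p-value was computed here. All 43 members are accounted for, with more detail for the 10 of highest fold and the 5 with most peaks, whose weaker peaks are given as ranges; of the other pathway genes, the 8 of highest fold at a q-value under 0.05 and the first 8 without a peak are named. No genome was used here, so sequence under the summits is not shown. Python 3.11.15 was used with scipy 1.17.1.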

Additional observations from a re-analysis of the deposited data

How the results depend on the processing

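Of the 43 genes, between 22 and 32 held a peak under every alternative tried (q-value, fold, fragment, region, assignment and overlap), and the median of the highest fold stayed between 4.79 and 6.36 under the alternatives that keep the caller's fold. Recomputed without the pseudocount, an alternative chosen after seeing the data, that median was 9.3, which the construction itself raises most for peaks on little input. The number of peaks, 119, fell to 66 at a q-value under 0.05, 35 at a q-value under 1e-5, 41 at a fold of at least 4, 72 on at least 10 fragments, 56 without intron peaks, 43 with exon and UTR peaks only and 77 by nearest start. The exon and UTR share of 36.1% became 56.1%, 71.4%, 53.7% and 52.8% under the first 4 of these and 23.4% by nearest start. The share with a q-value under 0.05, 55.5%, became 100% at a fold of at least 4, 84.7% on at least 10 fragments, 82.1% without intron peaks and 86.0% with exon and UTR peaks only. By construction, nearest start counts peaks by the deposited gene name, so peaks with no name drop out. It also leaves out peaks labelled intergenic, and the other alternatives leave out peaks. Of 26 genes with a value by nearest start, 5 moved outside the interval of their highest fold (PIK3CA to 6.23, PIK3R2 to 7.82, PDPK1 to 4.47, RICTOR to 5.23 and RPS6KB1 to 3.92), and without intron peaks 1 of 31 did (FOXO3, to 9.6). No paired analysis was possible because each group is 1 library.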
